A study of Brassica rapa with 8 samples.

Results

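C-S lyase (BraA03g054450.3C), *UGT74B1* (BraA09g039260.3C) and *NIT2* (BraA03g012980.3C) stand where the synthesis of glucosinolates and that of auxin part in Chinese cabbage, *Brassica rapa*. They were chosen by name, with the identifiers that the study gave to these enzymes by strict matching to *Arabidopsis thaliana* genes. They are 3 of 46250 genes listed in the count tables. By their own numbering, the identifiers of C-S lyase and *NIT2* belong to chromosome A03 and that of *UGT74B1* to chromosome A09. Their expression was followed in 8 RNA-seq libraries of whole seedlings of the cultivar Cantonner Witkrop, 2 biological replicates in each of 4 groups. The seedlings, 1 day old, were moved to agar without hormone (control) or to agar with IAA-Ala, IPA-Ala or IBA-Ala at 0.01 mM, and were kept under continuous light at 22 °C for 24 h. The titles of the libraries give 3 h in place of 24 h. In the 3 compounds alanine is joined by an amide bond to an indole auxin, whose side chain lengthens from acetic (IAA) through propionic (IPA) to butyric acid (IBA). RNA came from 100 mg of seedlings, so that roots, hypocotyls and cotyledons were measured together, and fewer cells that express a gene cannot be told apart from less RNA per cell. The tissue was not checked against marker genes, because the identifiers are not paired with names.

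Plants of the cabbage family make indole-3-acetaldoxime (IAOx) from tryptophan. Much of it is drawn into indole glucosinolates, sulfur-containing defence compounds, and part can be turned into indole-3-acetonitrile and from there into the auxin IAA. C-S lyase cleaves the sulfur conjugate formed from the activated aldoxime to a thiohydroximate. UGT74B1 adds glucose to that thiohydroximate and so makes the desulfoglucosinolate. NIT2 is a nitrilase, which hydrolyses indole-3-acetonitrile to IAA. In *A. thaliana*, where the C-S lyase of this pathway is SUR1, plants that lack C-S lyase or UGT74B1 make fewer glucosinolates and overproduce auxin.

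The counts on genes lay between 16616214 and 19521990 per library, and the scaling factors (TMM, edgeR's correction for composition) between 0.946 and 1.05. Levels are given as CPM, counts per 1000000 counts of the scaled library total. They are not divided by transcript length, so that the levels of different genes are not compared. Between 15.95% and 19.35% of the uniquely aligned reads matched no annotated gene when counted by strand. Between 2432970 and 2881490 reads per library aligned at several places and were counted for no gene. *B. rapa* carries several copies of many genes that *A. thaliana* has once, and where copies are nearly identical a level is therefore uncertain. Whether the 3 identifiers have further copies among the counted genes was not checked, so each value is that of a single identifier and not of the enzyme activity as a whole. Among the 27948 genes that passed the filter on low counts in the fit of all libraries, all 3 genes were included. By their mean level *UGT74B1* stood at the 81.2 percentile, C-S lyase at the 32.4 percentile and *NIT2* at the 17.6 percentile. *UGT74B1* had from 464 to 1075 counts in a library, C-S lyase from 28 to 144 and *NIT2* only from 14 to 40.

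The identifier named C-S lyase, an enzyme that makes the thiohydroximate from which glucosinolates are built, had its highest levels in both control libraries. The control replicates held 144 and 133 counts, which are 7.85 and 8.33 CPM. After IAA-Ala there were 28 and 77 counts (1.52 and 4.14 CPM), and after IPA-Ala 100 and 39 counts (5.82 and 2.19 CPM). After IBA-Ala there were 54 and 33 counts (2.78 and 1.75 CPM). Each of the 6 treated libraries thus lay below both control libraries. Of the 27948 genes tested over all libraries, 6.15% were placed in the same way.

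The mean level of C-S lyase was 8.09 ± 0.336 CPM in the control (SD, n = 2), 4.01 ± 2.57 with IPA-Ala, 2.83 ± 1.85 with IAA-Ala and 2.27 ± 0.731 with IBA-Ala. Neighbouring means among the 3 conjugates differed by less than the spread between their replicates. The control replicates differed by 1.06-fold, which is within the counting error (95% exact binomial interval of the ratio from 0.831 to 1.35). The IAA-Ala replicates differed by 2.73-fold (1.75 to 4.37) and the IPA-Ala replicates by 2.66-fold (1.82 to 3.95), more than counting alone gives. For comparison, the median difference over all genes tested was 1.36-fold between the control replicates and 1.24-fold and 1.23-fold between the replicates of IAA-Ala and IPA-Ala. Only 7.40% and 4.78% of genes differed as much as C-S lyase between the replicates of these treatments. Counting intervals here and below cover counting error only, since reads copied by PCR are not independent molecules.

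**Figure D1:**
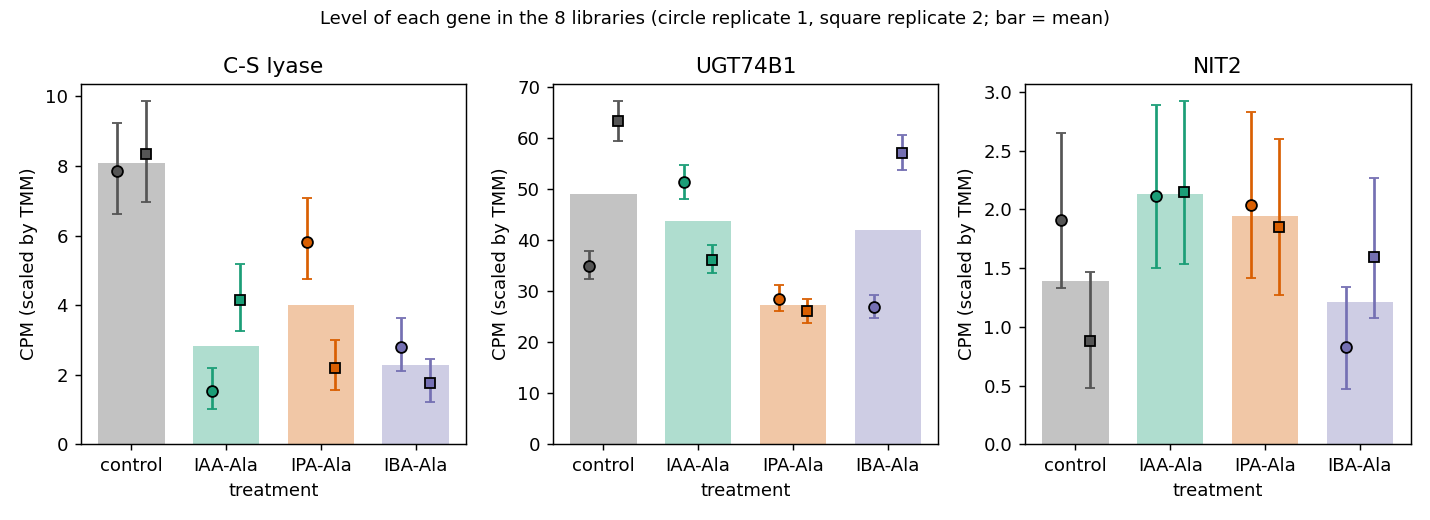
Level (CPM after TMM scaling, axis from 0) of C-S lyase, *UGT74B1* and *NIT2* in the 4 groups. Circles are replicate 1 and squares replicate 2, with exact 95% Poisson intervals of the count, and bars are the means of the 2 replicates. For C-S lyase both controls, at 7.85 and 8.33 CPM, stand above the 6 treated libraries, whereas *UGT74B1* and *NIT2* differ between replicates of the control and of IBA-Ala about as much as between treatments.

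Each treatment was compared with the control in a fit of the 4 libraries concerned. After IBA-Ala, C-S lyase was at 0.281 of the control level, a log2 fold change of −1.83 (standard error 0.38, 95% interval from −2.70 to −0.97). With edgeR (quasi-likelihood F test, Benjamini-Hochberg adjustment over all genes) its adjusted p was 0.0580, which missed the study's threshold of 0.01. By its unadjusted edgeR p of 0.00114 it was at rank 532 of 27011 genes. DESeq2, the tool of the study's own analysis, gave a log2 fold change of −1.84 and an adjusted p of 0.00560, below the threshold. The study named C-S lyase because it passed the threshold after IBA-Ala in these same libraries, so the comparison is not independent evidence for this gene.

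In IAA-Ala seedlings C-S lyase was at 0.348 of the control level, or −1.52 as log2 fold change (standard error 0.46, 95% interval from −2.55 to −0.51, edgeR adjusted p = 0.187). After IPA-Ala it was at 0.492 of the control level, a log2 fold change of −1.02 (standard error 0.44, 95% interval from −2.01 to −0.038, edgeR adjusted p = 0.544). In both, the 2 treated libraries lay below the 2 controls. Genes whose treated libraries both lay below both controls made up 21.9% of those tested for IAA-Ala, 17.6% for IPA-Ala and 23.7% for IBA-Ala. With the 3 conjugates averaged against the control in a fit of all 8 libraries, C-S lyase was at 0.365 of the control level, a log2 fold change of −1.45 (standard error 0.38, 95% interval from −2.30 to −0.61). The adjusted p was 0.0893 in edgeR and 0.0281 in DESeq2. These comparisons share the 2 control libraries.

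Single libraries carried much of the size of these differences. After IAA-Ala the log2 fold change of C-S lyase was −2.43 without IAA-Ala replicate 2 and −0.97 without replicate 1. After IPA-Ala it was −1.88 without IPA-Ala replicate 1 and −0.48 without replicate 2. After IBA-Ala it stayed between −2.20 and −1.54, with adjusted p between 0.0601 and 0.181 in edgeR, when each of the 4 libraries was left out.

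*UGT74B1*, the glucosyltransferase of the step after C-S lyase, was uneven among the untreated seedlings themselves. The control replicates held 641 and 1010 counts, which are 34.96 and 63.3 CPM. After IAA-Ala there were 947 and 673 counts (51.3 and 36.1 CPM), both between the 2 controls. After IBA-Ala there were 522 and 1075 counts (26.9 and 57.0 CPM), so that replicate 1 lay below both controls and replicate 2 between them. After IPA-Ala, by contrast, both replicates were low and close together, at 490 and 464 counts (28.5 and 26.1 CPM). The libraries of IPA-Ala lay below both controls and below both IAA-Ala libraries, while IBA-Ala replicate 1 lay between the IPA-Ala replicates. Of all genes tested, 17.6% had both IPA-Ala libraries below both controls, and 25.9% had them below both IAA-Ala libraries.

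The mean level of *UGT74B1* was 49.1 ± 20.01 CPM in the control (SD, n = 2), 43.7 ± 10.7 with IAA-Ala, 42.0 ± 21.3 with IBA-Ala and 27.3 ± 1.75 with IPA-Ala. The first 3 of these means differ by less than the spread between replicates, and the mean of IPA-Ala lies below that of IBA-Ala by less than the SD of the latter. With at least 464 counts in each library, counting error is small for this gene, and the ratio of the replicates was 1.81 in the control (95% exact binomial interval from 1.64 to 2.0) and 2.12 after IBA-Ala (1.91 to 2.36). Differences of this size or larger were found for 22.5% of all genes between the control replicates and for 9.01% between the IBA-Ala replicates. The IPA-Ala replicates differed by 1.09-fold (0.962 to 1.25), within the counting error.

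After IPA-Ala, *UGT74B1* was at 0.553 of the control level, a log2 fold change of −0.85 (standard error 0.31, 95% interval from −1.55 to −0.16). The edgeR adjusted p was 0.406 and that of DESeq2 0.345, both above 0.01, and the unadjusted p in edgeR was 0.0212. After IAA-Ala the log2 fold change was −0.19 (95% interval from −0.91 to 0.54) and after IBA-Ala −0.23 (−1.14 to 0.69), with adjusted p of 0.845 and 0.824 in edgeR. The intervals leave room for changes of about the size seen after IPA-Ala and for increases. Control replicate 2, the highest library, weighed on each of these values. Without it, the log2 fold change was −0.36 with IPA-Ala, 0.31 with IAA-Ala and 0.26 with IBA-Ala. Without control replicate 1 the value after IPA-Ala was −1.22, with an adjusted p of 0.0203 in edgeR.

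*NIT2*, the nitrilase on the route from indole-3-acetonitrile to IAA, was scarcely expressed. The control replicates held 35 and 14 counts (1.91 and 0.877 CPM). After IAA-Ala there were 39 and 40 counts (2.11 and 2.15 CPM), and after IPA-Ala 35 and 33 counts (2.04 and 1.85 CPM). After IBA-Ala there were 16 and 30 counts (0.825 and 1.59 CPM). IAA-Ala was the treatment whose libraries both lay above the 2 controls, which 24.3% of all genes tested also showed. Control replicate 1 lay among the IPA-Ala libraries, and control replicate 2 lay among those of IBA-Ala.

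The mean level of *NIT2* was 2.13 ± 0.0258 CPM with IAA-Ala (SD, n = 2), 1.95 ± 0.131 with IPA-Ala, 1.39 ± 0.730 in the control and 1.21 ± 0.542 with IBA-Ala. Neighbours in this order did not differ beyond their SD or counting error. The control replicates differed by 2.18-fold (95% exact binomial interval from 1.14 to 4.38) and those of IBA-Ala by 1.93-fold (1.02 to 3.79), more than counting alone gives. The replicates of IAA-Ala (1.02-fold, 0.638 to 1.62) and of IPA-Ala (1.10-fold, 0.664 to 1.83) differed within the counting error. The very small SD after IAA-Ala is below the counting error of these libraries, which was 15.9% of the level. Exact 95% Poisson intervals of single libraries reached from 0.479 to 1.47 CPM for control replicate 2 and from 1.54 to 2.93 CPM for IAA-Ala replicate 2. The log2 fold changes against the control were 0.58 with IAA-Ala (standard error 0.55, 95% interval from −0.63 to 1.79), 0.45 with IPA-Ala (standard error 0.52, −0.71 to 1.62) and −0.23 with IBA-Ala (standard error 0.60, 95% interval from −1.60 to 1.14). The edgeR adjusted p of these 3 values was 0.675, 0.917 and 0.885. The intervals reach well to both sides of 0, so that neither a higher nor a lower level of *NIT2* was shown. Without control replicate 1 the log2 fold change was 1.24 (IAA-Ala) or 1.13 (IPA-Ala). Without control replicate 2 these values were 0.15 and 0.025.

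Of the 3 genes together, edgeR called 0 against the control at the adjusted threshold of 0.01 for IAA-Ala, 0 for IPA-Ala and 0 for IBA-Ala, where 0.0486%, 0.488% and 0.00370% of all genes were called. At an unadjusted p below 0.05 there were 1, 2 and 1 of the 3 genes, beside 13.6%, 8.60% and 14.9% of all genes. These were C-S lyase in each comparison and *UGT74B1* after IPA-Ala. DESeq2 called 0, 0 and 1 of the 3 genes, beside 1.52%, 1.60% and 3.10% of all genes. In the fit of all 8 libraries, the average of the conjugates against the control gave 0 calls among the 3 genes in edgeR (0.476% of all genes) and 0 in DESeq2 (2.93%), with 1 gene, C-S lyase, at an unadjusted edgeR p below 0.05 (15.3%). A test of any difference among the 4 groups gave 0 calls in edgeR (0.00716% of all genes) and 0 in DESeq2 (5.46%), again with C-S lyase as the 1 gene at an unadjusted edgeR p below 0.05 (21.2%). The adjusted p of this test was 0.155 for C-S lyase, 0.414 for *UGT74B1* and 0.568 for *NIT2* in edgeR. In DESeq2 (likelihood ratio test) it was 0.0402, 0.375 and 0.810 in the same order.

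**Figure D2:**
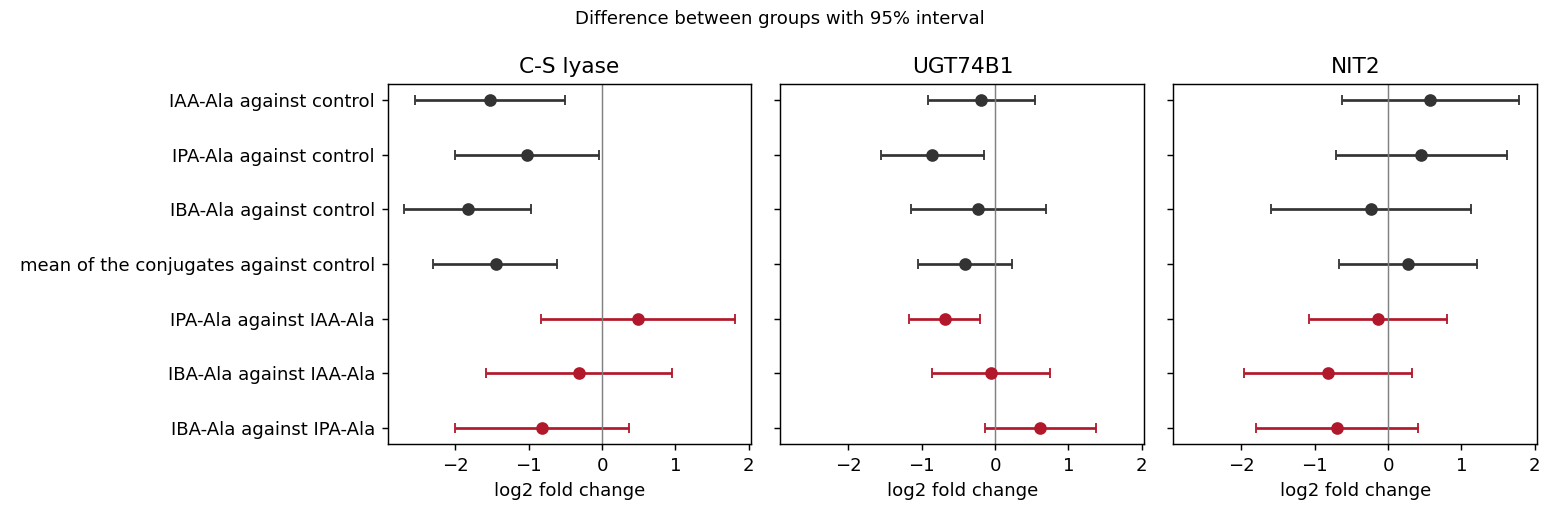
Differences in expression of the 3 genes (log2 fold change, x axis) between each treatment and the control, between the mean of the conjugates and the control (grey) and between treatments (red), with 95% intervals from edgeR. The intervals against the control lie below 0 for C-S lyase, from −2.70 to −0.97 after IBA-Ala, while those of *NIT2* all span 0.

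The conjugates differ in the length of the acid side chain and were given at the same dose for the same time, so that they can be compared with each other directly. Over the 3 pairs of conjugates and 3 genes, 9 differences were tested, each adjusted over all genes of its fit. The smallest p belonged to *UGT74B1* between IPA-Ala and IAA-Ala. The IPA-Ala level was 0.623 of the IAA-Ala level, or −0.68 on the log2 scale (standard error 0.21, 95% interval from −1.17 to −0.20). The edgeR p was 0.0112 before and 0.109 after adjustment, and DESeq2 gave an adjusted p of 0.0825. The 2 pairs of libraries did not overlap, which held for 25.9% of all genes in this direction. Between IBA-Ala and IPA-Ala, *UGT74B1* was 1.53 times as high after IBA-Ala (log2 fold change 0.62, 95% interval from −0.14 to 1.37), and this difference rested on IBA-Ala replicate 2, without which the log2 value was −0.030. Between IBA-Ala and IAA-Ala the log2 fold change of *UGT74B1* was −0.056 (95% interval from −0.86 to 0.75).

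For C-S lyase, the log2 fold change was 0.49 from IAA-Ala to IPA-Ala (95% interval from −0.83 to 1.81), −0.31 from IAA-Ala to IBA-Ala (−1.58 to 0.96) and −0.82 from IPA-Ala to IBA-Ala (−2.01 to 0.37). The libraries of each pair of treatments overlapped. For *NIT2*, the log2 fold change was −0.14 from IAA-Ala to IPA-Ala (−1.08 to 0.80), −0.82 from IAA-Ala to IBA-Ala (−1.97 to 0.33) and −0.69 from IPA-Ala to IBA-Ala (−1.79 to 0.40). Both IBA-Ala libraries had lower *NIT2* levels than the 4 libraries of the other conjugates, and both IPA-Ala libraries than those of IAA-Ala, by little. Of all genes, 28.8% were placed lower in this way from IAA-Ala to IBA-Ala, 18.5% from IPA-Ala to IBA-Ala and 25.9% from IAA-Ala to IPA-Ala. The edgeR adjusted p of these 6 differences lay between 0.324 and 0.883. Intervals of this width do not show that the conjugates act alike on C-S lyase or *NIT2*. Of the 3 genes, edgeR called 0 in each pair of conjugates, where it also called 0.00% of all genes. At an unadjusted p below 0.05 in edgeR there was 1 gene, *UGT74B1*, between IPA-Ala and IAA-Ala (22.7% of all genes), 0 between IBA-Ala and IAA-Ala (27.2%) and 0 between IBA-Ala and IPA-Ala (7.97%). DESeq2 gave C-S lyase and *NIT2* no adjusted p against IAA-Ala, and called 0 of the 3 genes where it gave one, beside 4.60%, 8.72% and 0.359% of all genes. At an adjusted p below 0.05, edgeR still called 0 of the 3 genes in every comparison, beside 2.34%, 6.86% and 0.00% of all genes in these pairs. The corresponding shares of all genes against the control were 0.669% (IAA-Ala), 1.25% (IPA-Ala), 1.64% (IBA-Ala) and 2.04% (average of the conjugates), and 1.55% differed among the 4 groups.

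The balance of the 3 transcripts inside a library does not depend on the scaling between libraries. For every 100 reads on C-S lyase, *NIT2* had 24.3 and 10.5 in the control replicates. It had 139 and 51.9 with IAA-Ala, 35 and 84.6 with IPA-Ala, and 29.6 and 90.9 with IBA-Ala. The ratio of *NIT2* to C-S lyase was thus above both controls in each of the 6 treated libraries. However, some counting intervals overlap that of control replicate 1 (16.3 to 35.4). They are those of IBA-Ala replicate 1 (15.8 to 52.5), IPA-Ala replicate 1 (23.1 to 51.9) and, narrowly, IAA-Ala replicate 2 (34.5 to 77.1). C-S lyase, the divisor, was itself below both controls in the 6 treated libraries, so this placing is not a result apart from its level. The share of all gene pairs placed in this way was not determined. The ratio of C-S lyase to *UGT74B1*, which act in consecutive steps, was 22.5% and 13.2% in the control. It was 2.96% and 11.4% with IAA-Ala, 20.4% and 8.41% with IPA-Ala, and 10.3% and 3.07% with IBA-Ala. Both libraries of IAA-Ala and of IBA-Ala had a lower ratio than either control, and so had IPA-Ala replicate 2, whereas IPA-Ala replicate 1 lay between the controls. The counting intervals of IAA-Ala replicate 2 (8.92% to 14.5%), IBA-Ala replicate 1 (7.67% to 13.7%) and IPA-Ala replicate 2 (5.90% to 11.7%) overlap that of control replicate 2 (10.9% to 15.8%). Since C-S lyase, the numerator, was itself below both controls in the 6 treated libraries, this placing is not a result apart from its level either. For this ratio too, the share of gene pairs placed in the same way was not determined. The ratio also moves with *UGT74B1*, whose count was highest in IBA-Ala replicate 2. The ratio of *NIT2* to *UGT74B1* was 5.46% and 1.39% in the control, 4.12% and 5.94% with IAA-Ala, 7.14% and 7.11% with IPA-Ala, and 3.07% and 2.79% with IBA-Ala. It was higher in both IPA-Ala libraries than in the other 6, but their counting intervals (4.92% to 10.1% and 4.84% to 10.1%) overlap several others. These are the intervals of control replicate 1 (3.77% to 7.67%) and of both IAA-Ala libraries (2.91% to 5.67% and 4.21% to 8.18%). That of IBA-Ala replicate 1 (1.74% to 5.03%) overlaps them narrowly too. In IBA-Ala the ratio lay between the 2 controls.

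**Figure D3:**
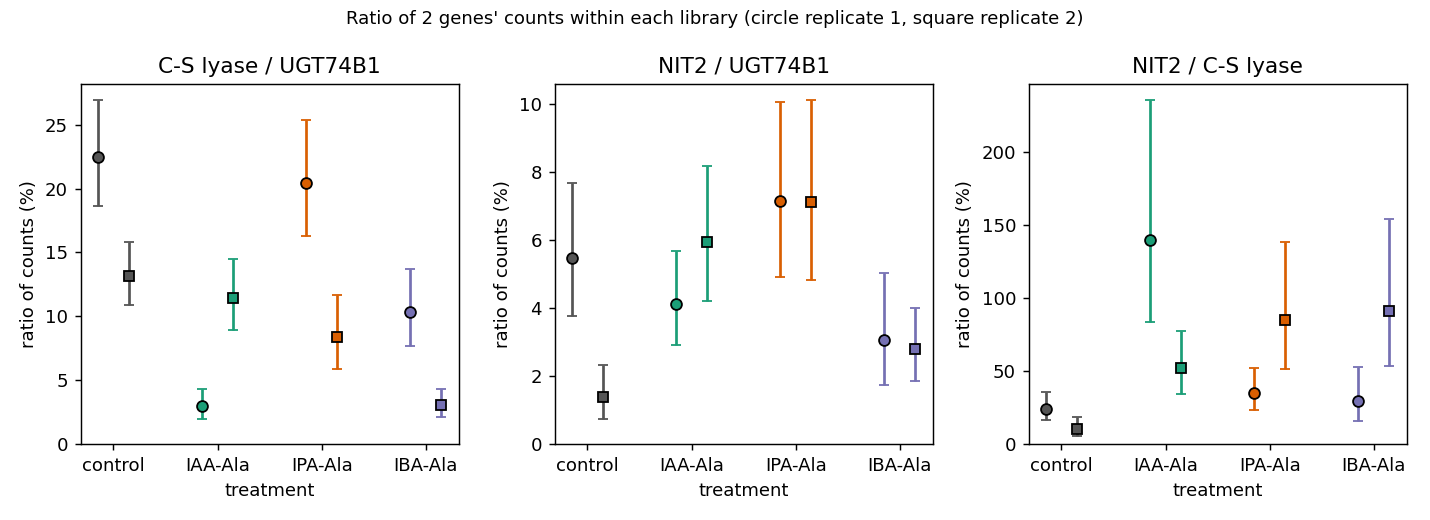
Ratio of the raw counts of C-S lyase to *UGT74B1*, of *NIT2* to *UGT74B1* and of *NIT2* to C-S lyase (in percent, axis from 0) in each of the 8 libraries, with exact 95% binomial intervals. Circles are replicate 1 and squares replicate 2. The ratio of *NIT2* to C-S lyase is 24.3% and 10.5% in the controls and from 29.6% to 139% in the treated libraries, where C-S lyase, the divisor, is itself lower.

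The patterns of the 3 genes over the libraries were unlike each other. As a measure of likeness, the log2 CPM of each gene was centred on its own mean and the root mean square difference over the 8 libraries was taken. It was 0.730 between *UGT74B1* and *NIT2*, 1.01 between C-S lyase and *UGT74B1* and 1.08 between C-S lyase and *NIT2*, whereas the median distance of all genes was 0.602 from *UGT74B1*, 0.608 from *NIT2* and 0.955 from C-S lyase. The gene nearest to *UGT74B1* was BraA03g060050.3C at 0.119, with 3.71 and 6.95 CPM in the control, 5.79 and 4.14 with IAA-Ala, 4.02 and 2.86 with IPA-Ala, and 2.94 and 6.37 with IBA-Ala. It shared the difference between the replicates of the control and of IBA-Ala. The gene nearest to *NIT2* was BraA03g007430.3C at 0.198, with its lowest levels in control replicate 2 (1.88 CPM) and IBA-Ala replicate 1 (2.01 CPM), the libraries in which *NIT2* was lowest too. For C-S lyase it was BraA02g042710.3C at 0.283, a gene with 1 to 16 counts per library, so that this likeness rests on few reads. These identifiers carry no name here, and each was picked as the nearest of 27947 genes.

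Of the other 11 auxin-related genes that the study paired with identifiers because they changed in these libraries, 10 were tested for IAA-Ala and 11 for each of the other conjugates. Past edgeR's adjusted threshold of 0.01, the numbers higher than the control were 3 for IAA-Ala, 1 for IPA-Ala and 0 for IBA-Ala, and 0 were lower in each comparison. DESeq2 called 4, 7 and 10 of them higher and 0 lower, so the order of the conjugates by this count turns with the tool. At an unadjusted p below 0.05, all of those tested were higher and 0 were lower. Their median log2 fold change was 1.90 with IAA-Ala, 2.35 with IPA-Ala and 3.02 with IBA-Ala, where that of all genes was −0.02, −0.02 and −0.01. The list was chosen on the same libraries, so its direction is not independent evidence. C-S lyase lay on the other side of 0 from these genes after each conjugate.

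*YUC3* (BraA10g003150.3C), a flavin monooxygenase of the main route to IAA by way of indole-3-pyruvic acid, had 1.80 and 1.19 CPM in the control. It had 7.96 and 4.94 CPM with IAA-Ala, 8.56 and 5.84 with IPA-Ala, and 8.46 and 5.52 with IBA-Ala. The 6 treated libraries lay above both controls for *YUC3*, the reverse of the placing of C-S lyase, and 7.70% of all genes tested were placed like *YUC3*. The paper describes *YUC3* as the only *YUC* gene higher after every conjugate, and most *YUC* genes as tending to be lower. Its values therefore do not stand for the whole route. *UGT74E2* (BraA08g034260.3C), a relative of *UGT74B1* that in *A. thaliana* puts glucose on IBA, had 6.0 and 7.64 CPM in the control, 16.5 and 10.7 with IAA-Ala, 11.2 and 17.3 with IPA-Ala, and 39.4 and 27.3 with IBA-Ala. All 6 treated libraries again lay above both controls, as for the 7.70% of genes just given, whereas *UGT74B1* was nowhere above control replicate 2. In the average of the conjugates against the control, the log2 fold change was 2.18 for *YUC3* (edgeR adjusted p = 0.0179), 1.45 for *UGT74E2* (adjusted p = 0.0276), −0.41 for *UGT74B1* (adjusted p = 0.554) and 0.27 for *NIT2* (adjusted p = 0.825).

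**Figure D4:**
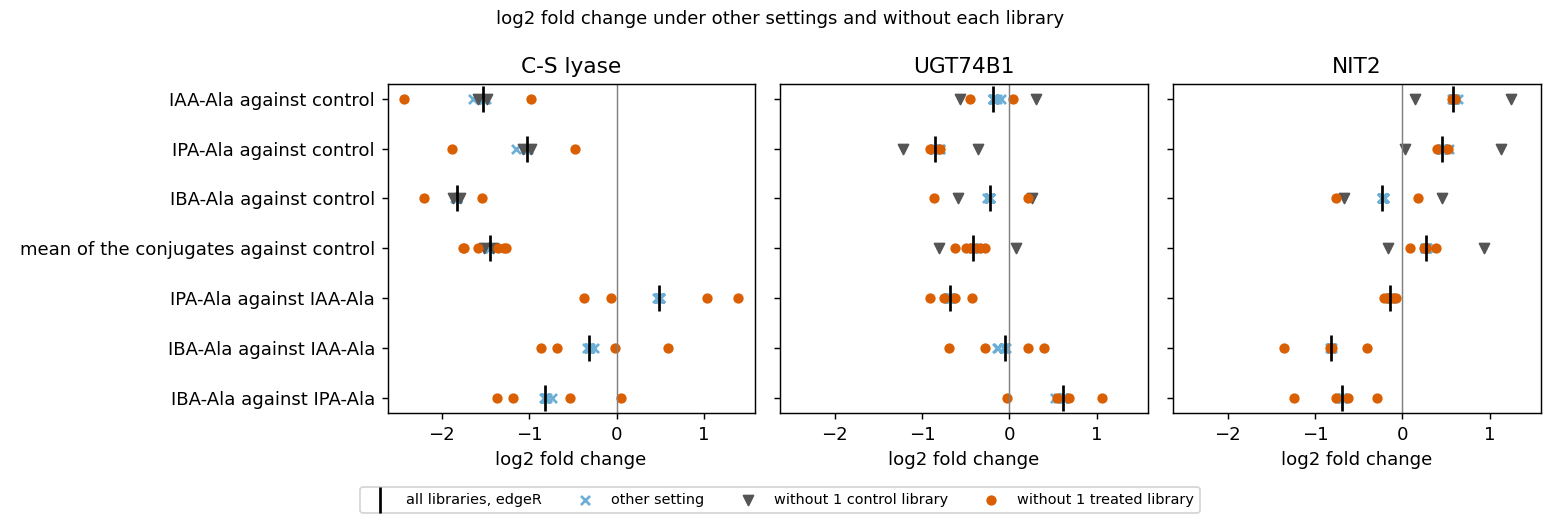
log2 fold change (x axis) of the 3 genes in the comparisons between groups as reported (black bars), with other settings of the test (blue crosses) and without a control library (grey triangles) or a treated library (orange points). The values of C-S lyase against the control stay below 0 throughout, whereas those of *UGT74B1* after IAA-Ala, from −0.57 to 0.31, lie on both sides of 0.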

How the data were processed

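The authors clipped the first 9 bases of single reads of about 50 bases, aligned them with STAR 2.7.1a to the *B. rapa* Chiifu V3.0 genome, a cultivar other than the one grown, and counted them per gene, by strand, with HTSeq 1.99.2. The deposited values are these raw counts. Tables named as normalized hold the same counts for fewer genes. The groups were taken from the titles of the libraries.

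Each fit used edgeR 4.0.16 in R 4.3.3 with filterByExpr (minimum count 10, minimum total count 15), TMM and the quasi-likelihood test, adjusted over all genes tested, and a prior count of 0.125. Treatments were set against the control and against each other in fits of 4 libraries. The mean of the conjugates and any difference among the 4 groups were tested on all 8. Standard errors are the absolute log2 fold change divided by the square root of the F statistic. Log2 CPM for the likeness of patterns used a prior count of 2. The scripts were tested on simulated data. Alternatives were DESeq2 1.42.0, RLE normalization, other filters, a threshold of 0.05, all 8 libraries, the replicate number as a block, each library left out, and the edgeR 3 form of the test, which was added after results had been seen.

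The genes and lists were chosen with earlier results of these data known. The genes named are the 3 enzymes, the other auxin genes that the study named in text with identifiers (with values for *YUC3* and *UGT74E2*), and for each enzyme the gene with the most similar pattern. No sequence is shown, because 0 of the 3 identifiers were matched in the reference table.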

Additional observations from a re-analysis of the deposited data

How the results depend on the processing

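The number of genes called among C-S lyase, *UGT74B1* and *NIT2* was 0 in each comparison with edgeR's quasi-likelihood test. After IBA-Ala it was 1, C-S lyase, with DESeq2 (adjusted p = 0.00560) and with the replicate number as a block (adjusted p = 0.00498 in edgeR, log2 fold change −1.85). Over the alternatives other than leaving out a library, the adjusted p of C-S lyase after IBA-Ala lay between 0.00498 and 0.102. Other settings and the threshold of 0.05 gave 0, and without any single library it was 0 in all 8 comparisons. Replicate numbers showed no consistent pairing of the libraries. The deviations of same-numbered replicates had correlations between −0.156 and 0.156 over 6 pairs of groups, 4 of them below 0. The highest was that of the control and IBA-Ala. With 2 replicates in each group, these values cannot decide whether those libraries are paired.

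No log2 fold change reversed under the 162 other fits of the 21 differences, but 10 of the 21 reversed without some library. Without each library in turn, they lay between −0.57 and 0.31 (IAA-Ala), −0.87 and 0.26 (IBA-Ala) and −0.81 and 0.076 (mean of the conjugates) for *UGT74B1* against the control, and between −0.77 and 0.45 (IBA-Ala) and −0.16 and 0.93 (mean) for *NIT2*. Between treatments, C-S lyase lay between −0.38 and 1.39 (IPA-Ala against IAA-Ala), −0.86 and 0.58 (IBA-Ala against IAA-Ala) and −1.36 and 0.048 (IBA-Ala against IPA-Ala), and *UGT74B1* between −0.69 and 0.40 (IBA-Ala against IAA-Ala) and −0.030 and 1.06 (IBA-Ala against IPA-Ala). *NIT2* had the fewest counts, 14 to 40 per library, and its replicates in the control and IBA-Ala differed beyond the counting error, so that depth is not its only limit. A lone library was assumed to vary like the other group.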
